A study of Mus musculus with 16 samples.

Results

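In CD4 single-positive cells of the mouse thymus, 1756 of 73442 open-chromatin peaks (2.39%) were both strong and nearly level across regulatory T cells, their precursors and conventional CD4 thymocytes. They were taken from a table of ATAC-seq signal, in which a transposase cuts accessible DNA and each value is the number of reads in a peak divided by a factor for library size. A peak was included where its mean over the 4 libraries of each population reached 300 in all 4 populations and the largest of the 4 means was at most 1.2 times the smallest. The population means therefore chose these peaks and are given below as a description, with no test. Of the other peaks, 2626 also reached 300 in every population but varied by more than 1.2 times; they are called the other strong peaks.

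The cells were sorted from the thymus of C57BL/6J males that all carry a Foxp3-GFP reporter allele (Foxp3GFP/Y). In CNS4KO/Y Foxp3GFP/Y mice the enhancer CNS4 upstream of Foxp3, the gene of the factor that defines regulatory T cells, is deleted, and CNS4FL/Y Foxp3GFP/Y mice keep it. From each of 2 mice per genotype 4 populations of CD4+ CD8- cells were collected, of 40000 to 50000 cells per replicate: Treg (Foxp3-GFP+), preTreg (CD25+ Foxp3-GFP-), mSP (CD25- Foxp3-GFP-, TCRβhi CD24lo, the gate for mature cells) and smSP (TCRβlo CD24hi, the gate for semimature cells). This gave 16 libraries in 8 groups of 2, and the 4 libraries of a mouse share the animal. CNS4KO replicates 1 and 2 are mice T7 and T8, and CNS4FL replicates 1 and 2 are mice T9 and T10. Each library held 5585827 to 11437401 reads in peaks, and the invariant peaks had median counts of 371 to 785 reads per library. In the contrast over all populations, limma p-values rest on the spread between 2 mice per genotype. Those within populations, between populations and for the interaction rest on the spread between libraries of the same group, pooled over the 8 groups. These have no term for the mouse, so the 4 libraries of a mouse were treated as independent. In sorted bulk cells, fewer cells with an open site and less opening per cell cannot be told apart.

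The labels were checked first. The peak at CNS4 (chrX:7570739-7571052, mm10) had 0 reads in all 8 CNS4KO libraries and a signal of 47.7 to 140 in the 8 CNS4FL libraries. The summed signal in and around 5 Treg marker genes was 7168 to 7887 in Treg libraries and 3562 to 5258 in the others. The summed signal of 4 maturation markers was 2745 to 3286 in mSP libraries, below the 3971 to 4688 of smSP libraries, and that of the semimature markers was 482 to 528 in mSP and 353 to 386 in smSP, which goes against these 2 labels. The semimature sum rests on 2 of 3 genes, since Rag1 had no peak. For mouse T8 the title and the description of the mSP and smSP libraries also name opposite populations, and the titles were followed. As titled, the T8 libraries lay within the ranges above for the maturation and semimature sums, and these ranges do not overlap. Grouped by the descriptions, the CNS4KO mSP and smSP groups each hold libraries from both ranges. With the descriptions instead, 1908 peaks meet the rule, among them 95.7% of the 1756. Of the marker genes of other cells, B cell genes summed to 113 to 339, myeloid and dendritic cell genes to 431 to 1189 and erythroid and stromal cell genes to 311 to 397. Cd79a, Ms4a1, Lyz2, Csf1r, Cd68 and Pdgfra had no peak. The B cell and the myeloid sums were highest in mSP libraries, and the part of such cells in the invariant peaks was not tested.

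Most constantly open sites in a mammalian genome are promoters of broadly expressed genes. Such promoters tend to lie in CpG islands, stretches rich in unmethylated CpG dinucleotides that stay free of stable nucleosomes and are bound by general activators such as the Sp and KLF factors, ETS factors, NRF1 and NFY. Cell identity, in contrast, is read mainly from enhancers within and between genes, which open and close as thymocytes choose the regulatory or the conventional fate.

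The sequences below show the kind of promoter that lies under the invariant peaks. Each is the RefSeq window (GRCm38.p6, the assembly called mm10) from 250 bases before to 50 bases after the gene start, read 5′ to 3′ on the strand of the gene, and capitals mark matches on either strand to any of 6 motifs: GGGCGG (Sp or KLF box), CCGGAAG (ETS), GCATGCG (NRF1 core), ATTGGCT (NFY), TGACGTC (cAMP response) and AAGATGG (YY1). The first 4 belong to strong invariant peaks. Hbp1 encodes an HMG-box repressor, Sp4 a zinc-finger factor that itself binds Sp boxes, Slc39a10 a zinc importer and Med19 a subunit of Mediator, the complex that bridges activators and RNA polymerase II.
Hbp1, chr12:31950196-31950495, minus strand: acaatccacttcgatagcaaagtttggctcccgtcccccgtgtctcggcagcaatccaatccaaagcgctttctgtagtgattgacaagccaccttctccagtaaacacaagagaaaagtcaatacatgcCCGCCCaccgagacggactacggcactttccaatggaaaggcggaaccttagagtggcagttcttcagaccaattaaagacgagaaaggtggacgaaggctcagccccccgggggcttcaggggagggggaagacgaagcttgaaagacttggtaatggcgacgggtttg
Sp4, chr12:118301391-118301690, minus strand: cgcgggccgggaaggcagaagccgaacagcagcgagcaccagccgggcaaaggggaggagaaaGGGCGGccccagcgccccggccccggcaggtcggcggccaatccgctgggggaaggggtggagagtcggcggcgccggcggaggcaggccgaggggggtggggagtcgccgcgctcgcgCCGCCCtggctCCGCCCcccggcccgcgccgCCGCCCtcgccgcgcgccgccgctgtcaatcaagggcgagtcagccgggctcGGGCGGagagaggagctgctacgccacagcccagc
Slc39a10, chr1:46853569-46853868, minus strand: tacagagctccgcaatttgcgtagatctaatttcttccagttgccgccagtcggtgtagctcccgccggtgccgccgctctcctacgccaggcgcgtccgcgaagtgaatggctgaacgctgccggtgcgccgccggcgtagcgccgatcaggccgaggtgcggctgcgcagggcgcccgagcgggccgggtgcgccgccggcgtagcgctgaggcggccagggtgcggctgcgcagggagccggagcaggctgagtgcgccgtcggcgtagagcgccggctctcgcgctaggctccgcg
Med19, chr2:84678152-84678451, plus strand: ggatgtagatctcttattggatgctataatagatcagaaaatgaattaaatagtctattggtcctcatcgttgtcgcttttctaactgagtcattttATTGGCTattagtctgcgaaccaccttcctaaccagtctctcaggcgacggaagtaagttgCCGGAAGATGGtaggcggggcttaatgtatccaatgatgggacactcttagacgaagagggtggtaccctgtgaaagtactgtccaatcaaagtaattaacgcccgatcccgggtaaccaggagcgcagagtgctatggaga

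The Sp4 window was 78.7% G and C with 42 CpG dinucleotides and 5 Sp or KLF boxes. The Slc39a10 window had 47 CpG dinucleotides and none of the 6 motifs, and the Hbp1 window only 16 CpG dinucleotides and 1 box. In the Med19 window the ETS and YY1 matches overlap in 1 run, and an NFY match stands upstream of them. Strong and level peaks thus lay over windows of quite different composition.

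The next 4 windows stand for gene groups described below. Tcp1 encodes a subunit of the CCT chaperonin that folds actin and tubulin and shares its peak with the gene Mrpl18 on the opposite strand. Rpl37 is a ribosomal protein of the large subunit, Ctcf the factor that anchors chromatin loops, and Entpd1 the ectonucleotidase CD39, used as a marker of regulatory T cells, whose peak also lies at the start of Tctn3.
Tcp1, chr17:12916079-12916378, plus strand: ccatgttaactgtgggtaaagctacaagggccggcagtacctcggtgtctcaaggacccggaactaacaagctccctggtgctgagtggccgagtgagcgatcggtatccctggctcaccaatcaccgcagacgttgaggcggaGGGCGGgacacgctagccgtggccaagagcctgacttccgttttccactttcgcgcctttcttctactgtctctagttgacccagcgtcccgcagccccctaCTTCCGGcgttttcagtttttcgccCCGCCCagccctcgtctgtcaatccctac
Rpl37, chr15:5116363-5116662, plus strand: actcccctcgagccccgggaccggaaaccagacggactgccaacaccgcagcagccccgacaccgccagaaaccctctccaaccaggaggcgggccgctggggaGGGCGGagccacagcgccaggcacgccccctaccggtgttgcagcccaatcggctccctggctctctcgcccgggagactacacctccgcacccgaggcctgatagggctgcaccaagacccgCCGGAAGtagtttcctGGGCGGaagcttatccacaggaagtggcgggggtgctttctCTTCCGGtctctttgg
Ctcf, chr8:105636288-105636587, plus strand: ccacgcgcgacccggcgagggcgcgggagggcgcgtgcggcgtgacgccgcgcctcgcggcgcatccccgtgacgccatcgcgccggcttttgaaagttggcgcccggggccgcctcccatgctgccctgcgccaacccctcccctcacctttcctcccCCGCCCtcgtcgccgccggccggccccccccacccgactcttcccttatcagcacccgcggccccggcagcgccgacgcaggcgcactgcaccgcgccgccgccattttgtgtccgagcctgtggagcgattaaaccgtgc
Entpd1, chr19:40612116-40612415, plus strand: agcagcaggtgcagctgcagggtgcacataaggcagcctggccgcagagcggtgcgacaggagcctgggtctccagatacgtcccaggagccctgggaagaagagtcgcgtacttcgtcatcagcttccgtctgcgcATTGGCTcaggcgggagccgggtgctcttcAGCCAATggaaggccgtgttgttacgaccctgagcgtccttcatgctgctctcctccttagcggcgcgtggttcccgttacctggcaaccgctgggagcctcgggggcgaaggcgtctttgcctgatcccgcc

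The Rpl37 window held 2 Sp or KLF boxes and 2 ETS matches, the Tcp1 window 2 boxes and 1 ETS match, and the Ctcf window 1 box among 47 CpG dinucleotides. The Entpd1 window held 2 NFY matches in opposite orientation and none of the others.

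By signal, the invariant peaks ranged from just over the threshold to 7456 normalised reads, with a median of 538 over the 16 libraries. Of the 10 strongest peaks in the series 8 were invariant, among the 100 strongest 62, and among the 1000 strongest 494. Their median width was 409 bp, against 434 bp in the other strong peaks and 170 bp in all peaks. Signal grows with the width of a peak; per 100 bp the median was 138 normalised reads in the invariant peaks, 126 in the other strong peaks and 35.9 in all peaks. The largest population mean was 1.14 times the smallest at the median invariant peak, which the rule fixes in part. Over the 16 single libraries the median coefficient of variation was 8.07% in the invariant peaks, 13.3% in the other strong peaks and 25.1% in all peaks. The plot of signal against the ratio shows that both classes lay mostly in the same range of signal.

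**Figure D1:**
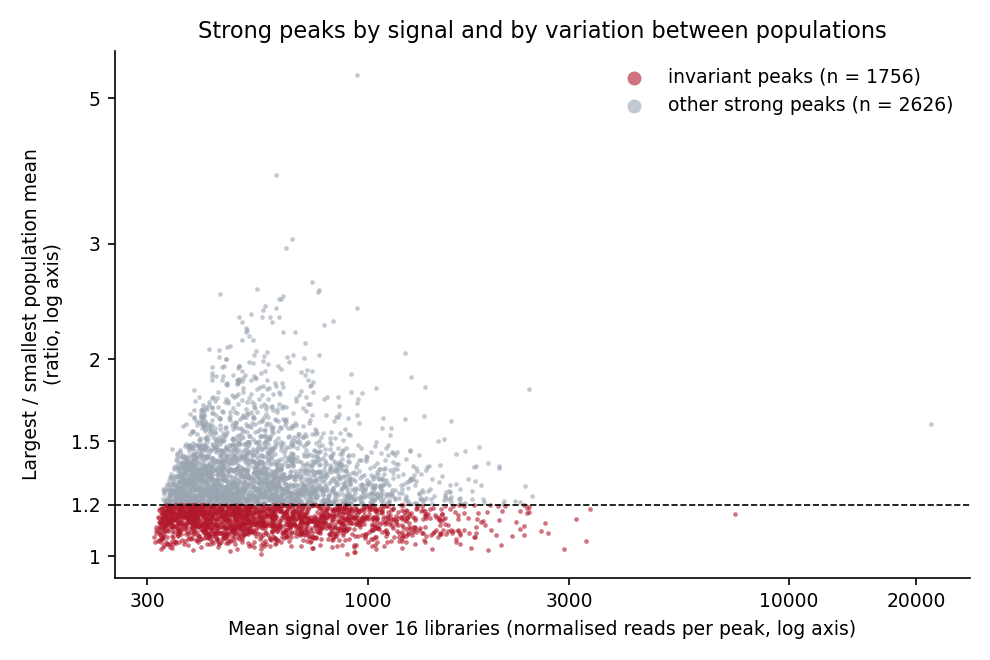
Mean signal over 16 libraries (normalised reads per peak, log axis) against the ratio of the largest to the smallest population mean (log axis) for 1756 invariant peaks (red) and 2626 other strong peaks (grey); each point is a peak and the dashed line is the limit of 1.2. Invariant peaks reach a signal of 7456 and lie below the line by construction.

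The strongest invariant peak, chr1:24611528-24614095, lay outside gene bodies, 23606 bp from Col19a1 and 62897 bp from Lmbrd1. Its means were 6888 in Treg, 7166 in preTreg, 7762 in mSP cells and 8007 in smSP cells. Its single libraries ran from 5565 to 10377, so this peak was far less level within a population than the rule shows: in mSP cells the CNS4KO libraries had 7613 and 10377 and the CNS4FL libraries 5938 and 7122. The mouse nuclear genome holds copies of mitochondrial DNA, and reads at such a copy can come from mitochondria; how much of this signal is mitochondrial was not tested.

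Strongest at a gene start was Lnpep, which encodes an aminopeptidase of endosomal vesicles (chr17:17624386-17625847). Its means were 3185 in Treg, 3191 in preTreg, 3766 in mSP cells and 3367 in smSP cells, and its 16 libraries ran from 3041 to 4010. All 4 mSP libraries, at 4010 and 3818 in CNS4KO and 3658 and 3578 in CNS4FL mice, were above all Treg and preTreg libraries. Sp4 (chr12:118300892-118302613) followed with means of 3254 in Treg, 3402 in preTreg, 3222 in mSP cells and 3273 in smSP cells, and its libraries lay between 3041 and 3808. The uncharacterised gene 4932412D23Rik averaged 3117 over the 16 libraries. Slc39a10 (chr1:46852718-46854485) averaged 2919, with means of 2935 in Treg, 2925 in preTreg, 2949 in mSP cells and 2868 in smSP cells, and its 16 libraries lay between 2679 and 3083. Per length Hbp1 (chr12:31950156-31950802) was the densest of all invariant peaks, at 414 normalised reads per 100 bp, with Med19 (chr2:84677990-84678500) next at 364. Hbp1 had means of 2579 in Treg, 2712 in preTreg, 2804 in mSP cells and 2625 in smSP cells, and libraries between 2340 and 2923.

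The flattest peak was that of Bbx, an HMG-box gene (chr16:50432057-50432540). Its means differed by a ratio of 1.009 around 894 normalised reads, yet its libraries ran from 812 to 993. Utp23, a factor of ribosomal RNA processing, had a ratio of 1.010, the phosphatase gene Ppm1b 1.015, the mitochondrial pyrophosphatase gene Ppa2 1.017, the chromatin remodeller subunit Ss18 1.019 and the Krüppel-like factor Klf7 1.022. Klf7 was the strongest of these 6 at 1926. Level means did not always mean level libraries. For Ppa2 the mSP libraries had 1085 and 893 in CNS4KO mice and 908 and 886 in CNS4FL mice, and the smSP libraries 869 and 837 in CNS4KO and 1157 and 881 in CNS4FL mice.

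At the mean threshold, the lowest population mean was 300.07 in Chmp1b, 300.13 in chr13:85126934-85127248 and 300.45 in Slc38a10, all just inside. It was 299.55 in Dctn5, 299.52 in chrX:113867858-113868202 and 299.47 in Smim20, all just outside. The ratio was 1.19997 in Hint2, 1.19992 in AW209491 and 1.19987 in Nemp2, inside the limit, and 1.20002 in Caprin2, 1.20010 in Acat1 and 1.20013 in chr14:51089459-51089768, outside it. Differences of this size are far below the spread between libraries, so membership of a peak near either limit is not firm.

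**Figure D2:**
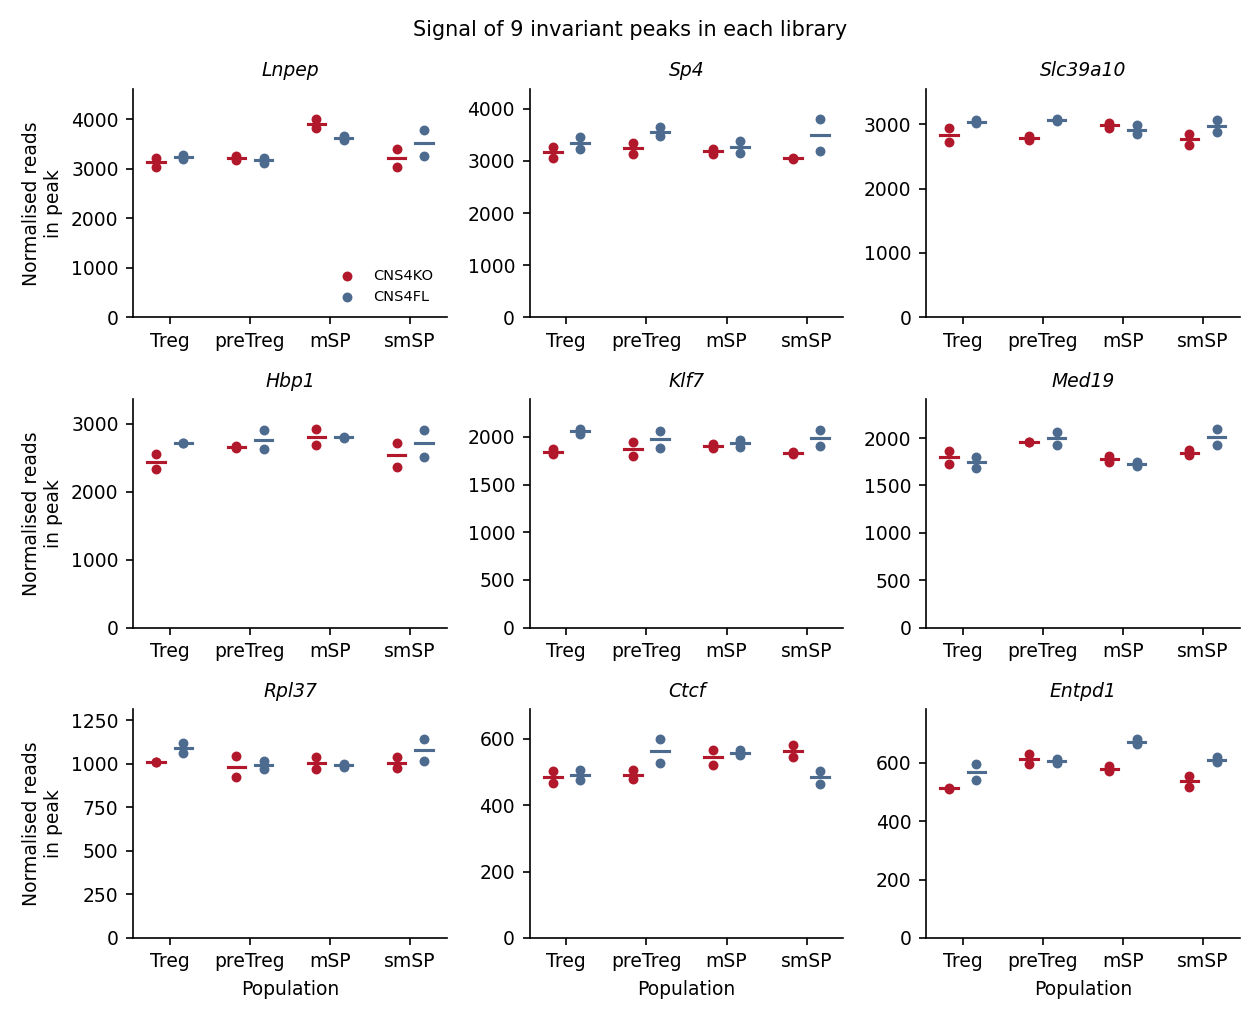
Signal (normalised reads in the peak) of 9 invariant peaks at gene starts in each library, by population, with CNS4KO (red) left of CNS4FL (blue); points are the 2 libraries of a group and lines their mean, and every axis starts at 0. In Slc39a10 the 16 libraries lie between 2679 and 3083, and in Entpd1 the 2 CNS4KO Treg libraries lie at 511 and 514.

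No single population led throughout. With the deposited scaling preTreg cells had the highest mean at 978 of the invariant peaks (55.7%), mSP cells at 332, Treg cells at 292 and smSP cells at 154, while smSP cells had the lowest mean at 694 (39.5%). This order rests on the scaling: with libraries set to equal totals preTreg cells led at 39.0% of the same peaks, and with quantile normalization at 12.6%, where mSP cells led at 33.1%.

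Applying the rule in 1 genotype and reading the ratio in the other gives the same measure in libraries that the choice did not use. Of 1502 peaks chosen in CNS4KO mice, 67.4% also stayed within 1.2 in CNS4FL mice and 99.4% within 1.5. Of 1615 chosen in CNS4FL mice, 63.5% stayed within 1.2 in CNS4KO mice and 99.8% within 1.5. Among strong peaks not chosen, 16.7% were within 1.2 in CNS4KO mice and 19.3% in CNS4FL mice.

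Invariant peaks lay mostly at gene starts. Of all 1756, 1331 (75.8%) were within 1 kb of a RefSeq gene start, against 65.0% of the other strong peaks and 37.3% of all peaks. A further 210 lay within 1 kb of an end of a gene body whose start was not placed. These ends can be starts or 3′ ends, and no starts were placed on chromosome 18, which held 70 of the invariant peaks. Only 149 (8.49%) lay elsewhere in a gene body, against 15.6% of the other strong peaks and 37.4% of all peaks, and 66 (3.76%) outside gene bodies, against 8.83% and 18.5%. Read the other way, 43.8% of the strong peaks at gene starts were invariant, and 22.1% of the strong peaks outside gene bodies. In 1127 peaks the start itself was inside the peak, and in 97 of these (8.61%) starts on both strands were, against 9.24% in the other strong peaks and 5.00% in all peaks. Chromosome X held 51 invariant peaks, 3.32% of its peaks, and chromosome Y none of its 25.

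**Figure D3:**
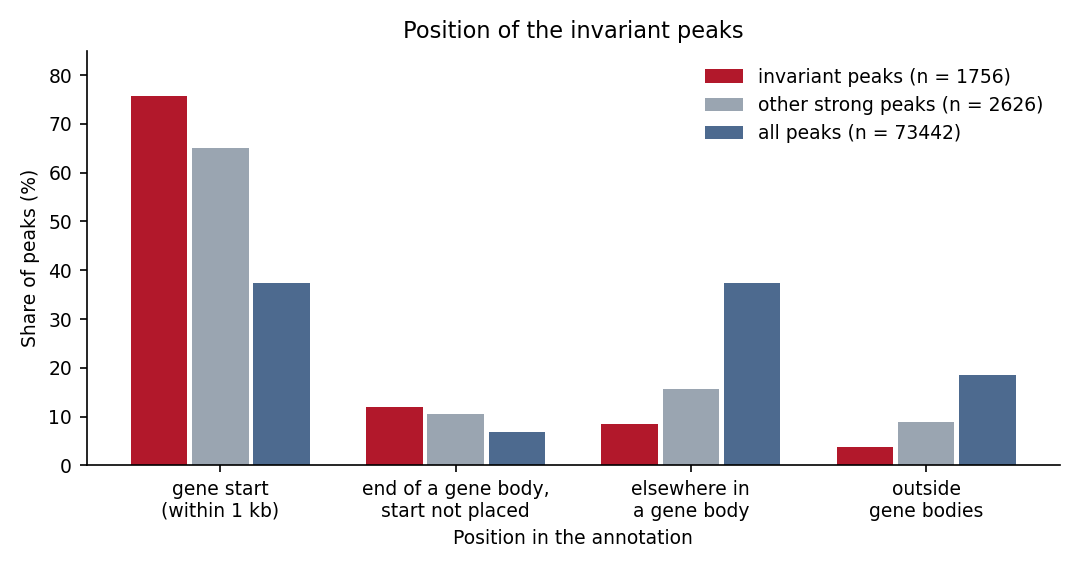
Share of peaks (%) in 4 positions of the annotation for 1756 invariant peaks (red), 2626 other strong peaks (grey) and all 73442 peaks (blue). Gene starts hold 75.8% of the invariant peaks, 65.0% of the other strong peaks and 37.3% of all peaks.

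The 1507 promoter windows at invariant peaks were CpG-rich. Their median was 62.3% G and C with 23 CpG dinucleotides per 300 bases, against 56.3% and 13 in all 21262 windows. Windows of the other strong peaks had 63.3% and 24, those of weaker peaks 61.0% and 21, and those without a peak 50.0% and 4, so the levelness of a peak did not set its window apart in composition. An Sp or KLF box (GGGCGG) was in 71.2% of the windows at invariant peaks, 74.6% at other strong peaks and 46.2% of all windows. An ETS match (CCGGAAG) was in 22.1%, 21.7% and 11.6% of these windows, an NFY match (ATTGGCT) in 18.4%, 20.7% and 9.27%, and a cAMP response string (TGACGTC) in 7.63%, 7.46% and 3.84%. An NRF1 core (GCATGCG) was in 6.50%, 5.30% and 4.44%, and a YY1 match (AAGATGG) in 8.10%, 7.87% and 6.24%. Strings of lineage factors were rarer than in all windows, of which 10371 had no peak, as they also were at the other strong peaks. A RUNX string (TGTGGTT) was in 3.19% of the windows at invariant peaks and 4.71% of all, and a TCF1 or LEF1 string (CTTTGAT) in 2.59% and 3.22%. An E protein box (CAGGTG) was in 14.8% and 19.7%, and an AP-1 string (TGANTCA) in 3.58% and 6.99%. TATAAA was in 4.11% and 12.6%, and AGGNGGC, a CTCF core, in 41.4% and 33.6%. In windows of weaker peaks RUNX was in 3.61%, TCF1 or LEF1 in 2.26%, the E protein box in 18.7% and AP-1 in 4.49%. The TCF1 or LEF1 string was thus not rarer than there. An NRF1 core was in 7.39% of them, while Sp or KLF, ETS, NFY, cAMP response and YY1 strings were rarer there than at invariant peaks. Both strands were searched, N stands for any base, and CTCF and Sp or KLF strings may overlap; these matches describe letters and not bound sites.

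Genes with basic cellular roles were found among the invariant starts, at shares near that of genes in general. Of 9134 protein-coding genes with a peak at their start, 1301 (14.2%) had an invariant one. Of the ribosomal protein genes, 8 of 57 did, among them Rpl37 and Rpl15. Rpl37 (chr15:5116180-5116722) had means of 1050 in Treg, 988 in preTreg, 996 in mSP cells and 1041 in smSP cells, with libraries from 924 to 1140, and Rpl15 averaged 896 over the 16 libraries. Other ribosomal protein genes were strong but varied more, such as Rpl34 with a ratio of 1.392 and Rpl13a with 1.313. Of the proteasome genes, which encode the protease that degrades ubiquitin-tagged proteins, 4 of 34 had an invariant start, with Psma5 at 745 and its ratio at 1.071 and Psmc6 at 723. Of the CCT chaperonin genes 2 of 7 did: the peak that Tcp1 shares with Mrpl18 (chr17:12915886-12916506) had means of 1082 in Treg, 1215 in preTreg, 1117 in mSP cells and 1083 in smSP cells, with libraries from 1000 to 1324, and Cct3 averaged 589. A shared peak cannot be given to either gene.

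Energy and gene-expression machinery gave similar shares. Respiratory chain genes had 13 of 75, led by a peak of 1035 shared by Atp5j, a coupling factor of ATP synthase, and the ETS factor gene Gabpa on the other strand, and by the complex I gene Ndufa5 at 1012. Mitochondrial ribosome genes had 8 of 69, with Mrps14 at 1095. Translation initiation genes had 5 of 43, among them Eif2a at 1135 and Eif4e, the cap-binding protein, at 424. These lists too were made by gene symbol. The initiation list took in every Eif symbol, such as the kinase genes Eif2ak1 to Eif2ak4, and Eif5a, which was among the 5. The respiratory chain list took in assembly factor genes, of which Ndufaf7 and Ndufaf8 were among the 13. Splicing genes had 4 of 38, with Snrpa of the U1 particle at 646 and Prpf38b at 480. The list of RNA polymerase II, its general factors and Mediator had 10 of 70, led by Med19 at 1858 and Med21 at 951. This list was made by gene symbol and also took in Taf1a, Taf1b, Taf1c and Taf1d, which encode factors of RNA polymerase I. Taf1d was among the 10. Cohesin and CTCF genes had 2 of 8: Ctcf (chr8:105636016-105636601) at 522 and the peak shared by the cohesin subunit Smc1a and Ribc1 at 409. The peaks of Med19, Cct3, Ndufa5 and Eif2a are shared too, as they also lie within 1 kb of the starts of Tmx2, Tsacc, Asb15 and Serp1 in that order, and those of Ctcf and Snrpa lie near the starts of Gm5914 and BC024978. Over these 9 lists the shares ran from 10.5% to 28.6%, and the 2 highest came from lists of 7 and 8 genes.

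**Figure D4:**
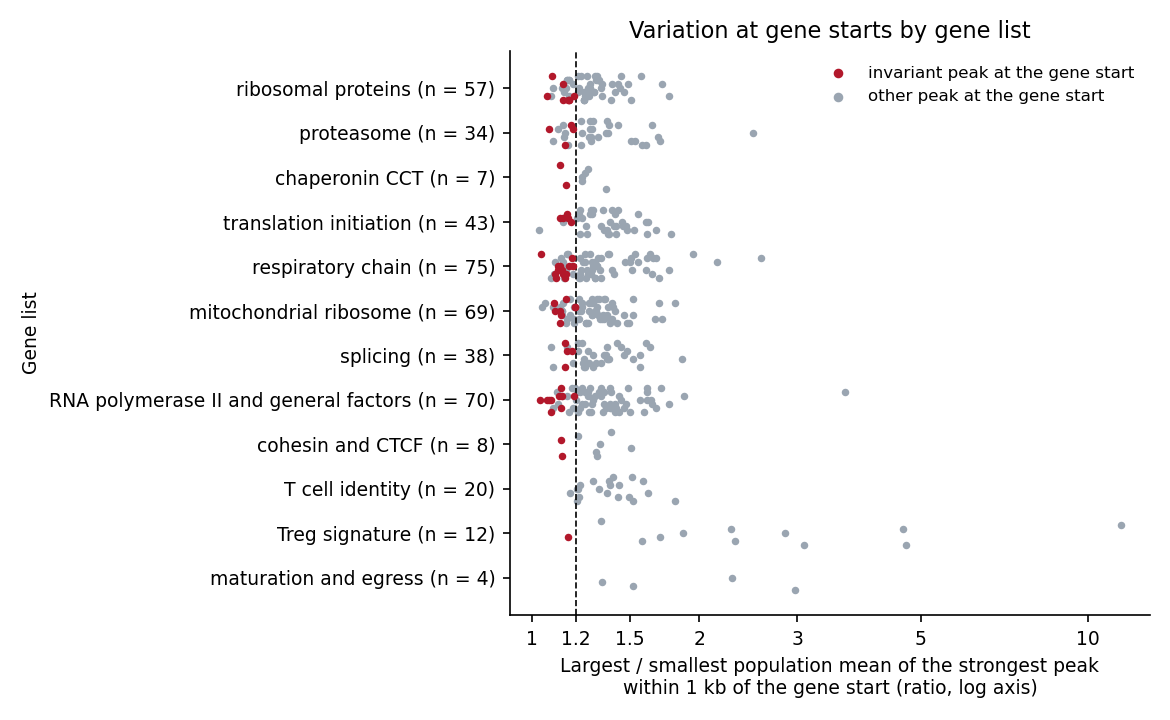
Ratio of the largest to the smallest population mean (log axis) at the strongest peak within 1 kb of the start of each gene, by gene list; red points are invariant peaks, grey points other peaks, and the dashed line is the limit of 1.2. The T cell identity list has no red point among 20 genes and the Treg signature list 1 of 12.

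Of all protein-coding genes with a start peak, 14.2% had an invariant one. None of the 20 T cell identity genes with a start peak did; 3 of those peaks were strong, at Lef1 with a ratio of 1.38, Satb1 with 1.43 and Themis with 1.203. Lck, the kinase of the CD4 coreceptor, was level with a ratio of 1.17, but its means of 165 to 193 were under the threshold. Of 12 Treg signature genes with a placed start and a peak there, only Entpd1 had an invariant one (chr19:40612150-40612527), shared with Tctn3. Its means were 540 in Treg, 609 in preTreg, 626 in mSP cells and 574 in smSP cells, and its libraries ran from 511 to 681. The start of Ctla4 had a ratio of 1.57, that of Tigit 2.32 and that of Itgb8, an integrin chain that activates TGF-β, 11.46. None of the 4 maturation and egress genes with a start peak had an invariant one; the strong ones were Klf2 with a ratio of 1.34 and Sox4 with 2.29. Anywhere in the T cell identity genes, 3 of 582 peaks (0.515%) were invariant, against 2.85% of peaks in all genes. Only 14 of these 582 peaks were strong, and the 3 are 21.4% of them, against 41.5% of the 4048 strong peaks in all genes. With counts this small, nothing is called particular to these lists. Among the 3 were peaks in Runx1 (chr16:92801605-92801997, mean 338) and in Lef1 (chr3:131208492-131208928, 603). The Treg signature genes held 2 of 196, the start of Entpd1 and a peak at an end of the Ikzf2 gene body (chr1:69686998-69687742, 495). As the start of Ikzf2 was not placed, this peak can be a start or a 3′ end.

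Of 1543 genes with an invariant start, 617 had other peaks in their body away from starts that were not themselves invariant, 2528 in all; 14 invariant ones were left out. Of the 2528, 2007 (79.4%) were called between the 4 populations (limma F test, adjusted p under 0.05), where 68.3% of all tested peaks and 77.3% of all gene-body peaks outside the invariant set were, so the share was near its background. In 535 of the 617 genes at least 1 was called. In Entpd1, 9 of its 12 body peaks were called. The most varied of the 12 was picked as an example, chr19:40678624-40678870, with a ratio of 3.28. It had means of 89.7 ± 32.7 in Treg, 84.3 ± 11.5 in preTreg, 27.3 ± 2.24 in mSP cells and 32.4 ± 8.15 in smSP cells (SD, n = 4 libraries each).

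Invariant peaks away from gene starts and ends numbered 215. One of the strongest, chr6:41554286-41555099, lay in the T cell receptor β locus, 6105 bp from the constant segment Trbc2 and 2594 bp from the variable segment Trbv31, where the locus enhancer is known to lie. Its means over the 4 populations were 1672 and 1679 in CNS4KO mice T7 and T8 and 1496 and 1434 in CNS4FL mice T9 and T10. The 2 genotypes did not overlap, and the difference was 0.19 on the log2 scale (SE 0.03, limma adjusted p = 0.00171); the call was lost without the second CNS4FL mouse (limma adjusted p = 0.0741).

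The rule averaged both genotypes and so did not use a genotype difference that all populations share. A difference in 1 population alone it limits: with the other populations level and equal, a CNS4KO to CNS4FL ratio above 1.40 or below 0.667 in that population would take its mean past the limit. The calls within populations are therefore from peaks in which large changes of this kind were left out, and the shares of all peaks beside them are not limited in this way. In Treg cells 22 invariant peaks (1.25%) were called between CNS4KO and CNS4FL libraries by limma at an adjusted p under 0.05, 8 higher and 14 lower in CNS4KO, where 1.77% of all 73140 tested peaks were (0.693% higher, 1.08% lower). The balance in all peaks depends on the method: limma called 507 higher and 787 lower, and edgeR 1150 higher and 882 lower, while the invariant peaks had 10 higher and 22 lower with edgeR and 8 and 25 with equal library totals. In preTreg cells 17 (0.968%) were called, 15 higher and 2 lower, where 0.409% of all peaks were (0.357% higher, 0.0520% lower). In mSP cells 8 (0.456%) were called, 7 higher and 1 lower, where 0.246% of all peaks were (0.163% higher, 0.0834% lower), and with edgeR all peaks gave 243 higher and 58 lower, against 119 and 61 with limma. In smSP cells 5 (0.285%) were called, 1 higher and 4 lower, where 0.0848% of all peaks were (0.0369% higher, 0.0479% lower); the direction turned with quantile normalization, at 3 higher and 0 lower, and the split was 2 and 4 with equal totals and 2 and 3 with edgeR. No invariant peak differed by 2-fold in any population, and the largest change was 0.72 on the log2 scale, which the rule fixes in part. At an unadjusted p under 0.05 the counts were 235 in Treg (13.4%, where 14.5% of all peaks were), 202 in preTreg (11.5%, where 9.17% were), 184 in mSP cells (10.5%, where 9.63% were) and 378 in smSP cells (21.5%, where 10.0% were). Invariant peaks hold more reads than most peaks, and the part of depth in these shares was not tested. The counts rested on single libraries. Treg calls numbered 1 without the first and 43 without the second CNS4KO Treg library, and 5 or 3 without the first or the second CNS4FL one. None was left in preTreg cells without the first CNS4KO or the second CNS4FL preTreg library, in mSP cells without the first CNS4KO or the second CNS4FL mSP library, or in smSP cells without the first CNS4KO or the first CNS4FL smSP library. With T8 grouped by its descriptions the count was 3 for Treg and 1 for preTreg cells, and 0 for the rest. That grouping puts libraries from both marker ranges into the same group, and its part in the lost calls was not tested.

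In Treg cells, the peak in Wdfy2, which encodes an endosomal adaptor (chr14:62940707-62941104), had 522 and 372 normalised reads in CNS4KO and 247 and 288 in CNS4FL libraries. It rose by 0.72 on the log2 scale (SE 0.13, limma adjusted p = 0.00403), and the call was lost without the first CNS4KO or the first CNS4FL Treg library. The peak in Dock9, an activator of the GTPase Cdc42 (chr14:121731658-121732186), had 620 and 593 in CNS4KO and 346 and 421 in CNS4FL Treg libraries, a rise of 0.67 (SE 0.11, limma adjusted p = 0.000655) that was lost without the first CNS4FL library. Both pairs stood clear of each other. A peak in Panx1, an ATP-releasing channel, rose by 0.44 (SE 0.10, limma adjusted p = 0.0117). At the start of Btg1, a brake on lymphocyte proliferation (chr10:96616399-96617807), CNS4KO Treg libraries had 1866 and 2103 and CNS4FL Treg libraries 2505 and 2638, so it fell by 0.38 (SE 0.07, limma adjusted p = 0.00463). A peak in Asap1, a regulator of Arf GTPases, fell by 0.41 (limma adjusted p = 0.0371) and the start of the complex I gene Ndufa12 by 0.38 (limma adjusted p = 0.031). The Panx1 and Btg1 calls were lost without the first CNS4KO or the second CNS4FL Treg library, and the Asap1 and Ndufa12 calls without any 1 of the 4 Treg libraries. With T8 grouped by its descriptions the Panx1, Asap1 and Ndufa12 calls were lost, and with DESeq2 the Asap1 call.

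In preTreg cells the peak in Lef1, a factor of early T cells, had 764 and 669 in CNS4KO and 547 and 460 in CNS4FL libraries, a rise of 0.51 (SE 0.10, limma adjusted p = 0.0166). A peak in Sytl2, a Rab27 effector, rose by 0.49 (limma adjusted p = 0.0294). The starts of Ngly1, which removes N-glycans from misfolded proteins and shares its peak with Oxsm, and Dnaja1, an Hsp70 co-chaperone, fell by 0.36 (limma adjusted p = 0.0291) and 0.35 (limma adjusted p = 0.0312). In mSP cells a peak outside the gene body of Cd2, an adhesion receptor of T cells, but within 1 kb of an end of it, was called. The peak had 567 and 497 in CNS4KO and 392 and 354 in CNS4FL libraries and rose by 0.51 (SE 0.11, limma adjusted p = 0.0276). A peak in Ccdc146 rose by 0.54 (limma adjusted p = 0.0107), the Sytl2 peak by 0.47 (limma adjusted p = 0.048), and the start of Sertad2 fell by 0.29 (limma adjusted p = 0.033). In smSP cells the start of Ssbp2, which encodes a DNA-binding partner of LIM-domain factors, had 916 and 960 in CNS4KO and 1363 and 1141 in CNS4FL libraries and fell by 0.41 (SE 0.08, limma adjusted p = 0.0189). The start of Hook1, a microtubule linker, fell by 0.35 (limma adjusted p = 0.0409), the neighbour of the strongest invariant peak, chr1:24614108-24615374, by 0.34 (limma adjusted p = 0.0394), and a peak in Gm30881 rose by 0.47 (limma adjusted p = 0.0383). Each of these calls was lost with T8 grouped by its descriptions and without the first CNS4KO library of its own population. All of the preTreg and mSP calls were also lost without the second CNS4FL library of their population, and all of the smSP calls without the first CNS4FL smSP library. The calls of Sytl2 and Sertad2 in mSP cells and those of Hook1, Gm30881 and chr1:24614108-24615374 in smSP cells were lost without either CNS4FL Treg library too, which entered the shared spread, and some of these without libraries of other populations. Beyond these, the preTreg calls of Ngly1, Dnaja1 and Sytl2, the mSP calls of Sytl2 and Sertad2 and the smSP calls of Hook1, Gm30881 and chr1:24614108-24615374 were lost without at least 1 further library of their own population. Quantile normalization also ended the calls of Dnaja1 in preTreg cells, Sytl2 in mSP cells and Hook1, Ssbp2 and chr1:24614108-24615374 in smSP cells, and equal library totals that of Sytl2 in mSP cells.

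Over all 4 populations, with the mouse as the replicate, 97 of the 1756 invariant peaks (5.52%) were called by limma, where 2.36% of all peaks were. Of the 97, 42 were higher in CNS4KO mice, where 1.72% of all peaks were higher, and 55 lower, where 0.639% were lower. Among the 2626 other strong peaks the share was larger, at 261 called (9.94%), 207 of them higher (7.88%) and 54 lower (2.06%). No invariant peak differed by 1.5-fold, and at an unadjusted p under 0.05 their count was 441 (25.1%, where 14.6% of all peaks were). The adjusted count was 29 without the second CNS4FL mouse, 52 without the first CNS4KO mouse and 240 without the second CNS4KO mouse, and 39 with DESeq2.

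The direction went with position. At gene starts 4 invariant peaks were higher and 49 lower of 1331 (0.301% and 3.68%), while away from gene starts and ends 37 were higher and 3 lower of 215 (17.2% and 1.40%). The median difference was -0.049 on the log2 scale at starts and 0.026 away from them, and in all peaks -0.004. Both CNS4KO mice showed this: relative to the CNS4FL mean the median was -0.066 in T7 and -0.031 in T8 at starts, and 0.019 and 0.022 away from them. All tested peaks showed the same split in direction, with 100 higher and 189 lower of 27301 at starts (0.366% and 0.692%, median -0.024) and 1130 higher and 232 lower of 40876 away from starts and ends (2.76% and 0.568%, median 0.022). The other strong peaks gave 20 higher and 40 lower of 1708 at starts and 182 higher and 7 lower of 642 away from them. With DESeq2 these counts at starts were even, at 42 higher and 42 lower in all peaks and 12 and 13 in the other strong peaks. Away from starts and ends DESeq2 gave 509 and 50 in all peaks and 113 and 1 in the other strong peaks. In the invariant peaks the split by position was also seen with equal library totals, at 3 higher and 52 lower at starts and 34 higher and 4 lower away. With edgeR it was seen at 6 and 45 and at 38 and 3. With DESeq2 the counts were 1 and 12 at starts and 24 and 0 away, and without the second CNS4FL mouse 2 and 9 at starts and 16 and 1 away.

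**Figure D5:**
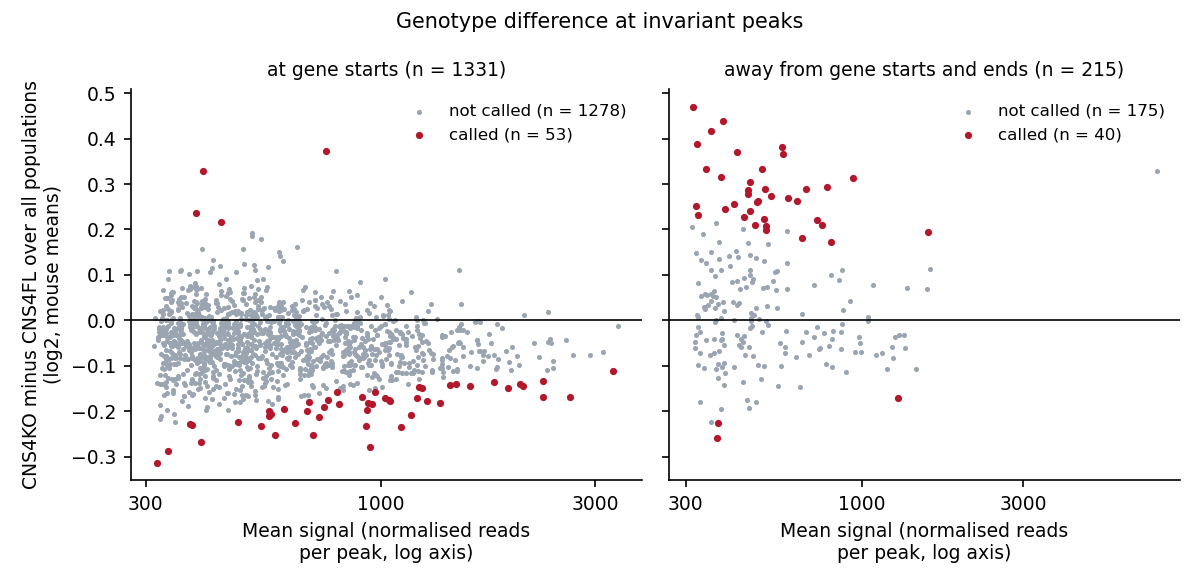
Difference between CNS4KO and CNS4FL over all populations (log2, mouse means) against mean signal (normalised reads per peak, log axis) for invariant peaks at gene starts (left, n = 1331) and away from gene starts and ends (right, n = 215); each point is a peak, and red points were called by limma at an adjusted p under 0.05. Of the red points 49 of 53 lie below 0 at starts and 37 of 40 above 0 away from starts.

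The share of all reads in peaks that fell in invariant peaks went the same way. It was 14.5% and 14.7% in CNS4KO and 15.0% and 15.1% in CNS4FL Treg libraries, and 14.6% and 15.0% in CNS4KO and 15.1% and 15.3% in CNS4FL preTreg libraries. In mSP cells it was 14.2% and 14.5% in CNS4KO and 14.7% and 14.9% in CNS4FL libraries, and in smSP cells 14.1% and 14.5% in CNS4KO and 15.2% and 14.8% in CNS4FL libraries. In each population both CNS4KO libraries were below both CNS4FL libraries. Depth went with genotype in part. In mSP cells CNS4KO libraries held 7076332 and 5585827 reads in peaks and CNS4FL libraries 9416774 and 8841355. The preTreg counts were 8808350 and 8899473 in CNS4KO and 9436558 and 9324569 in CNS4FL libraries. Treg cells had 6580712 and 8247109 against 7741253 and 11437401, and smSP cells 5799697 and 7222050 against 6848693 and 9968196. The genotypes overlapped there. The part of depth in these shares was not tested. The shares by position leave out the strongest invariant peak, chr1:24611528-24614095, and its neighbour chr1:24614108-24615374. The reads they are taken of leave out this pair and the strongest of all peaks. As means of the 4 libraries of a mouse, the share at gene starts was 11.1% and 11.4% in CNS4KO and 11.7% and 11.7% in CNS4FL mice, and the share away from starts and ends 1.52% and 1.52% in CNS4KO and 1.48% and 1.49% in CNS4FL mice. A two-sided exact permutation test over 4 mice gave p = 0.333 for each, the smallest p it allows. These shares moved with the genotype differences of single peaks, and their part in those was not tested.

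Among the single peaks, Asf1a, the start of a histone chaperone gene (chr10:53596419-53597043), had mouse means of 859 and 847 in CNS4KO mice and 1029 and 1043 in CNS4FL mice. It fell by 0.28 on the log2 scale (SE 0.04, limma adjusted p = 0.000288). The start of Glcci1, a gene linked to the glucocorticoid response in humans, had 271 and 295 in CNS4KO and 355 and 348 in CNS4FL mice and fell by 0.31 (SE 0.06, limma adjusted p = 0.00688). The start of Aig1, a lipid hydrolase gene, fell by 0.29 (SE 0.06, limma adjusted p = 0.0124), a call lost without the second CNS4FL or the first CNS4KO mouse and with DESeq2. The start of Btg1 fell by 0.17 (SE 0.03, limma adjusted p = 0.00299), that of Dnaja1 by 0.23 (SE 0.05, limma adjusted p = 0.00423) and that of Ssbp2 by 0.24 (SE 0.04, limma adjusted p = 0.000775). Without the second CNS4FL mouse the Btg1 and Dnaja1 calls were lost (limma adjusted p = 0.0566 and 0.176). The Btg1 call was also lost with quantile normalization (a fall of 0.09, limma adjusted p = 0.120) and with DESeq2 (adjusted p = 0.0543), while the Asf1a, Glcci1 and Ssbp2 calls held in every alternative run.

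The 3 largest called rises were in peaks away from starts, while 4 start peaks were called higher. In chr10:59974150-59974512, 22380 bp from the stress-response gene Ddit4 and 12897 bp from Anapc16, CNS4KO mice had 386 and 346 and CNS4FL mice 287 and 241, a rise of 0.47 (SE 0.08, limma adjusted p = 0.00109). The Wdfy2 peak had 489 and 399 in CNS4KO and 327 and 328 in CNS4FL mice and rose by 0.44 (SE 0.07, limma adjusted p = 0.00259). A peak between the cytokine receptor genes Il4ra and Il21r, chr7:125588719-125589139, had 438 and 381 in CNS4KO and 319 and 289 in CNS4FL mice and rose by 0.42 (SE 0.07, limma adjusted p = 0.00111). The Lef1 peak rose by 0.27 (SE 0.06, limma adjusted p = 0.0081) and the Cd2 peak, near an end of a gene body whose start was not placed, by 0.37 (SE 0.06, limma adjusted p = 0.0012). In each of the 5 peaks the 2 genotypes did not overlap in mouse means. The first 3 calls held in every alternative run, while the Lef1 and Cd2 calls were lost without the second CNS4FL mouse (limma adjusted p = 0.251 and 0.0673).

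Whether the genotype difference itself varied between populations was tested for every peak, and 2 invariant peaks were called (limma F test), where 0.402% of all peaks were. Such a difference moves single population means, which the rule limits, so nothing is read from the lower share. The first, chr10:96370644-96371379, lay between the long noncoding RNA genes Gm33782 (8117 bp away) and Gm33843 (153045 bp away) and averaged 1593 normalised reads. In Treg cells it had 1434 and 1410 in CNS4KO and 1728 and 1573 in CNS4FL libraries (-0.21 on the log2 scale, limma adjusted p = 0.052). In preTreg cells it had 1621 and 1648 in CNS4KO and 1290 and 1242 in CNS4FL libraries (0.37, limma adjusted p = 0.00293). The pairs stood apart in opposite directions in these 2 populations. In mSP cells it had 1800 and 1794 in CNS4KO and 1549 and 1466 in CNS4FL libraries (0.25, limma adjusted p = 0.0504), and in smSP cells 1762 and 1757 in CNS4KO and 1776 and 1636 in CNS4FL libraries (0.05). Its adjusted p for the interaction was 0.00174 with limma. The second was the Dock9 peak, with a difference of 0.67 for Treg, 0.02 for preTreg, 0.36 for mSP and -0.22 for smSP cells and an adjusted p of 0.0109 with limma. Neither was called with T8 grouped by its descriptions (limma adjusted p = 0.0721 and 0.316), and the Dock9 call was lost without the first CNS4FL (0.137) or the first CNS4KO Treg library (0.0645).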

How the data were processed

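ATAC-seq was measured in 16 libraries of sorted mouse thymocytes. Per the submitters' processing notes the tools were Trimmomatic 0.36, STAR 2.5.4b, SAMtools 1.10, Genrich, R 3.6.3 and DESeq2 1.24.0 with the mm10 build; their order and settings are not given in the sources used here. The deposited table holds a signal for 73442 peaks: the authors divided the reads of each peak by a size factor of the library. Whole reads could be recovered (100% of values within 0.0001 of a whole read; size factors 0.697 to 1.45). Such scaling assumes that most peaks do not differ between libraries.

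Peaks with a mean of at least 10 were tested (73140 peaks, all 1756 invariant ones included) with limma 3.58.1 in R 4.3.3 (trend, robust) on log2(value + 1), with Benjamini-Hochberg adjustment over all tested peaks and a threshold of 0.05. The contrasts within and between populations and the interaction used 8 group means, and the contrast over all populations the means of each mouse. The alternatives were other scalings (equal totals, quantile, TMM), pseudocounts, edgeR 4.0.16 and DESeq2 1.42.0 on recovered reads, a replicate block, the T8 descriptions, and each library or mouse left out. A mouse block was also run for the interaction and for the test between populations. The tests were checked on simulated data. Gene starts and promoter windows come from RefSeq (GRCm38.p6), with 17491 of 21896 protein-coding genes placed; those on chromosome 18 were not used here.

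Named peaks are the 6 strongest, the 6 flattest, the 3 nearest each limit on either side, the 2 strongest of each gene list, the 3 with the largest called change in each direction per genotype contrast, and the 3 strongest far from starts; peaks of T cell genes, and Btg1, Dnaja1, Ssbp2, Lef1 and Cd2 over all populations, were added after their values were seen. A few peaks and marker genes that these rules name are not reported here. The invariant peaks and the gene lists were chosen with earlier results of these data known. The position split in every setting, the gene-body background without invariant peaks, and the read share without the chr1 pair and the strongest peak, were added after seeing the data.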

Additional observations from a re-analysis of the deposited data

Results flagged for a closer look

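In 2 invariant peaks the genotype difference differed between populations by limma's F test of the interaction: chr10:96370644-96371379, with an adjusted p of 0.00174, and the peak in Dock9, with an adjusted p of 0.0109.

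In 12 of 268 sets of 4 libraries of 1 population, across 67 peaks that the naming rule gave, 1 library stood far from the other 3, by a gap whose share of the whole range passed Dixon's 95% critical value for 4 values; chance alone gives about 1 in 20. For Ppa2 it was the first CNS4KO library in mSP cells (1085 against 886 to 908, a gap of 0.888 of the range) and the first CNS4FL library in smSP cells (1157 against 837 to 881, 0.862). For Cct3 it was the second CNS4KO library in Treg cells (678 against 589 to 596, 0.918) and the first CNS4KO library in preTreg cells (571 against 656 in the other 3, 0.994). For Mrps14 it was the first CNS4KO library in smSP cells (1029 against 1157 to 1179, 0.850), and for Psmc6 the second CNS4FL library in Treg cells (794 against 709 to 716, 0.917). For the peak shared by Atp5j and Gabpa it was the first CNS4KO library in Treg cells (1080 against 960 to 971, 0.908), and for Snrpa the second CNS4KO library in preTreg cells (711 against 642 to 653, 0.843). For chr10:96370644-96371379 it was the second CNS4FL library in smSP cells (1636 against 1757 to 1776, 0.867). For Btg1 it was the second CNS4FL library in preTreg cells (2355 against 2173 to 2190, 0.906). For 2 peaks named at the limits it was the first CNS4KO library in smSP cells for Chmp1b (336 against 283 to 291, 0.847) and the second CNS4FL library in mSP cells for Caprin2 (752 against 797 to 805, 0.854). The libraries differed from peak to peak.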

How the results depend on the processing

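The rule gave 416 peaks with a ratio limit of 1.1, 3964 with 1.5 and 889 with a mean threshold of 500; with 200 it gave 2562, with equal totals 2074, with TMM 1817 and with quantile normalization 2453. Leaving out 1 mouse gave 1656 to 1720. In Treg cells 14 invariant peaks were called with DESeq2, in mSP cells 13 with edgeR and 15 with DESeq2, in smSP cells 3 with quantile normalization (3 higher and 0 lower), and over all populations 39 with DESeq2. With T8 grouped by its descriptions the calls numbered 3 for Treg, 1 for preTreg and 0 for mSP cells, smSP cells and the interaction, against 97 over all populations as before. Leaving out 1 library gave 1 to 43 calls for Treg, 0 to 20 for preTreg, 0 to 12 for mSP and 0 to 17 for smSP cells, 1 to 3 for the interaction and 1914 to 1997 varying peaks in genes with an invariant start; leaving out 1 mouse gave 29 to 240 over all populations. The causes of these shifts were not tested. Chosen in CNS4KO and read in CNS4FL mice, 67.4% of peaks stayed within the ratio limit, against 63.5% the other way round. None of the named genotype differences turned its sign. A call was lost in 83 of 352 settings without 1 library or mouse and in 26 of 279 other settings. For a difference within 1 population most runs without 1 library left out a library of another population. Such runs do not change the difference itself, so its sign could not turn in them, and they lower the share of lost calls.

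Replicate numbers name mice of different genotype and do not pair them: same-numbered libraries deviated together with correlations of 0.0059 to 0.0525. With a replicate block the calls numbered 33 for Treg, 23 for preTreg, 17 for mSP and 12 for smSP cells and 228 over all populations.

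Precision was limited by 371 to 785 reads per invariant peak and library (medians) and by 2 mice per genotype.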
